A study of Mus musculus with 9 samples.

Results

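Exposure to 100 pM estradiol (E2) was compared with exposure to vehicle in primary cultures of prostate mesenchyme, the connective tissue that surrounds the prostatic part of the urogenital sinus. The cells came from male CD-1 mouse fetuses at gestation day 17 and were used at first passage. All groups were kept in charcoal-stripped serum for 3 days and then treated for 4 days, with 690 pM dihydrotestosterone (DHT) present in every group, the vehicle group included. The vehicle group received ethanol without E2. The labels give the ethanol as 0.05% in some fields and as a higher share in another. The comparison took the 3 arrays at 100 pM and the 3 vehicle arrays out of 9 arrays in the series. The other 3 arrays, from cells given 10 pM E2, entered the same fit and are shown beside the higher dose. CD-1 is an outbred stock, and the sources do not say how many litters stood behind each sample or whether the 3 samples of a group were grown separately, so p-values rest on a spread among samples that could be technical in origin. The array, Affymetrix Mouse Gene 1.0 ST, reads each gene with a set of probes (a probeset), and values are log2 signals. Probesets with 1 gene symbol were kept, and each gene was represented by its brightest probeset over the 9 arrays, which left 19938 genes from 35556 probesets.

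Estradiol enters the cell and binds estrogen receptors, which act as transcription factors at response elements on DNA or through other factors such as AP-1. In the fetal prostate the receptors are found in the mesenchyme, and mesenchyme in turn sends growth factors, Wnt modulators and matrix proteins to the epithelium that forms the buds. Genes such as Pgr, the progesterone receptor, are classical readouts of estrogen receptor activity.

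Throughout, a difference is the mean log2 signal of the 100 pM arrays minus that of the vehicle arrays, and SE is its standard error from limma's moderated fit. A gene was called when its Benjamini-Hochberg adjusted p over all genes was below 0.05, and only called genes are said to have risen or fallen. Values for single arrays are given in the order of the replicate numbers in the labels, which carry no rank. Signals of different genes are not comparable with each other on this platform. RNA came from whole cultures, so fewer cells of a type and less RNA per cell cannot be told apart.

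Before the results, 1 array needs mention. Among the called genes, the second 100 pM array lay farthest from the vehicle mean for 170, the third for 42 and the first for 14. The median size of the deviation was 0.522 on the second array, against 0.375 on the first and 0.414 on the third. Array medians of the deposited values ranged from 6.49 to 6.53 over the genes. How these values were normalized is not known, and normalization can level medians, so they cannot show whether raw brightness set that array apart. Without it, 142 genes were called in place of 226, and 76 were called once the second array of each of these groups was left out. A drop to 142 was not particular to that array. The count was 143 without any 1 of the 10 pM arrays, and 88, 122 or 108 without vehicle array 1, 2 or 3. It was 259 without the first 100 pM array and 194 without the third.

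The higher dose moved a small part of the genome. Of 19938 genes, 226 were called, which is 1.13% of those tested. In 89 of them (0.446%) the signal rose and in 137 (0.687%) it fell. The median rise was 0.44 and the median fall was -0.45 on the log2 scale, and 66 of the called genes changed by at least 1.5-fold, 23 upward and 43 downward. All 226 had 3 arrays at 100 pM on one side of all 3 vehicle arrays, while 12.5% of all genes had such arrays. Over all genes the median difference was 0.0049, and the 5th and the 95th percentile were -0.15 and 0.15. At an unadjusted p below 0.01, 831 genes passed.

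**Figure D1:**
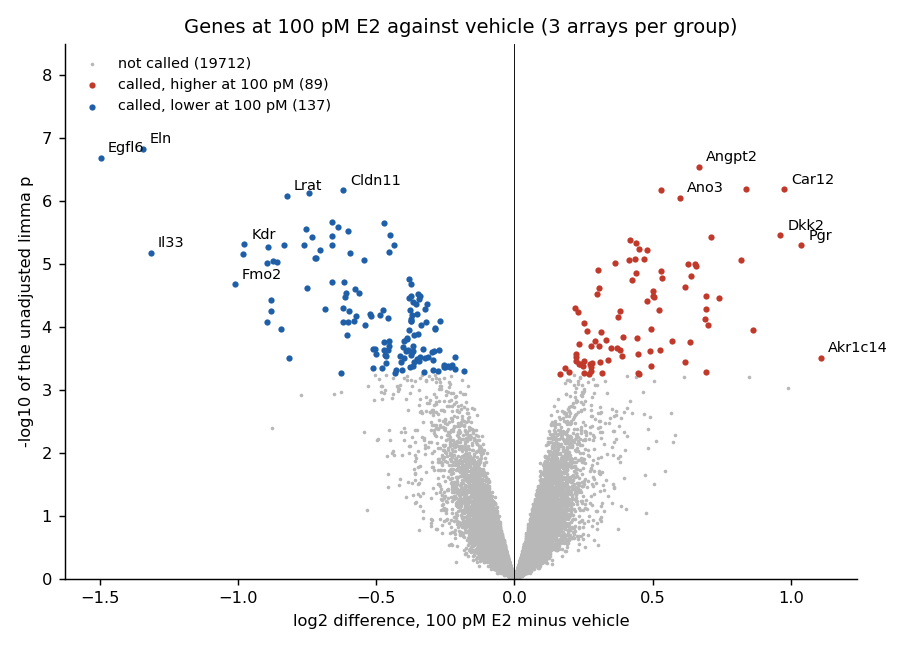
Each point is a gene, placed by its log2 difference (100 pM E2 minus vehicle, 3 arrays per group) on the x axis and by -log10 of its unadjusted limma p on the y axis, with 89 called genes that were higher in red and 137 that were lower in blue. Egfl6, Eln and Il33 lie farthest to the left and Akr1c14 and Pgr farthest to the right.

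The progesterone receptor gave the clearest steroid readout. Pgr signal was 6.57, 6.84 and 6.77 on the vehicle arrays, 7.04, 7.27 and 7.26 at 10 pM and 7.55, 7.84 and 7.90 at 100 pM. All 3 arrays at 100 pM were above all others, and all 3 at 10 pM were above vehicle. The difference at 100 pM was 1.04 (SE 0.11, adjusted p = 0.00359), a 2.05-fold rise, and the step from 10 to 100 pM was 0.58 (adjusted p = 0.0528). Pgr was the single called gene among 38 nuclear receptors. Esr1, which encodes estrogen receptor alpha, read 7.48, 7.44 and 7.49 with vehicle and 7.58, 7.69 and 7.76 at 100 pM. Its arrays did not overlap, but the difference of 0.21 (SE 0.048, adjusted p = 0.0997) did not pass the test.

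Of 18 classical estrogen-responsive genes measured, 2 rose, 2 fell and 14 were not called. The list median was 0.031, against 0.0049 for all genes. Ccnd1, the cyclin that drives entry into S phase, read 9.08, 9.19 and 9.16 with vehicle and 9.57, 9.64 and 9.53 at 100 pM and rose by 0.44 (adjusted p = 0.00359). Igfbp4 and Igf1, described below with the insulin-like growth factors, fell. Greb1, a cofactor of the receptor and an early estrogen target in breast cells, stood at 0.61 with an adjusted p of 0.0523.

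Enzymes that act on steroids moved in single members. Akr1c14, a hydroxysteroid dehydrogenase that reduces DHT, gave the largest rise of all called genes at 1.11 (SE 0.20, adjusted p = 0.0349). Its signal was low and scattered, at 4.43, 4.08 and 4.05 with vehicle and 4.89, 5.24 and 5.75 at 100 pM, so this was also the least precise of the 30 named extremes. Sult1e1, the sulfotransferase that inactivates estrogens, went from 7.47, 7.39 and 7.65 to 6.99, 6.82 and 6.90 and fell by 0.60 (adjusted p = 0.0117). These were the 2 called genes of 28 steroid-metabolizing enzymes. Cyp11b1, an adrenal hydroxylase outside that list and named here after its values were seen, rose by 0.63 (adjusted p = 0.00399). Its close paralog Cyp11b2 could share probes with it.

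Wnt signaling is tuned outside the cell by secreted inhibitors and enhancers. Of 19 such modulators, Dkk2 and Rspo2 rose and Sfrp1 and Sfrp4 fell. The signal of Dkk2, a Dickkopf family ligand of the Lrp coreceptors, was 7.67, 7.48 and 7.51 with vehicle, 7.79, 7.88 and 7.88 at 10 pM and 8.29, 8.70 and 8.55 at 100 pM. The difference at 100 pM was 0.96 (SE 0.10, adjusted p = 0.00359), and the step between the doses also passed the test, at 0.66 (adjusted p = 0.0171). At 10 pM the difference from vehicle was 0.30 and was not called. Sfrp1, a decoy that binds Wnt proteins, read 9.88, 9.81 and 10.00 with vehicle and 9.22, 8.69 and 9.15 at 100 pM. Sfrp4 of the same family read 9.20, 9.03 and 9.27 and 8.38, 8.00 and 8.48. In both decoys the second 100 pM array was lowest, and the differences were -0.88 (SE 0.12, adjusted p = 0.0116) for Sfrp1 and -0.88 (SE 0.12, adjusted p = 0.00927) for Sfrp4. At 10 pM their differences were -0.01 and 0.077, and neither was called. Rspo2, an R-spondin that strengthens Wnt signals, rose by 0.30 (adjusted p = 0.00752).

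Among 19 Wnt ligands none was called, and the 2 of smallest p were Wnt11 at -0.19 (SE 0.038, adjusted p = 0.0548) and Wnt8a at 0.12 (adjusted p = 0.602). Of 42 receptors, polarity genes and targets, Prickle1, a planar polarity component, fell by 0.35. Calls for Sfrp1 and Sfrp4 were lost without vehicle array 1 or vehicle array 3, whereas Dkk2 and Rspo2 stayed called with any 1 of the 9 arrays left out. With only the 6 compared arrays in the fit, none of the secreted modulators was called.

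**Figure D2:**
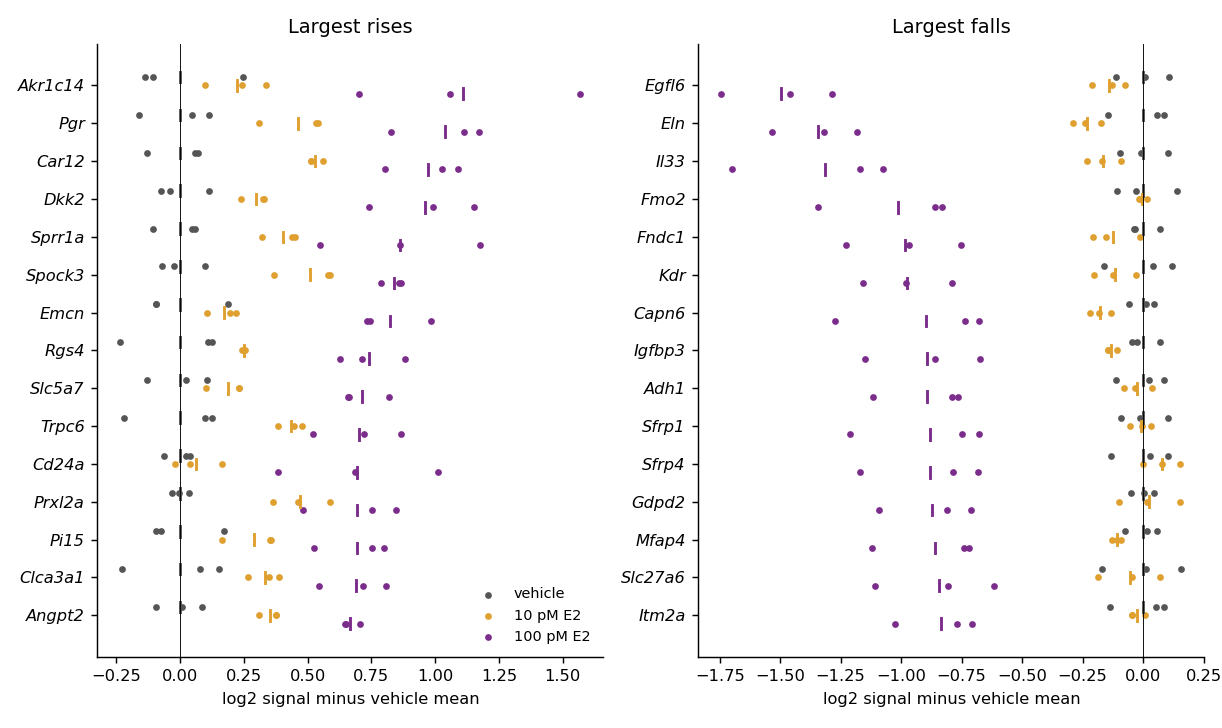
Log2 signal minus the vehicle mean (x axis) for the 15 largest rises (left) and 15 largest falls (right) among the called genes, with each array as a point and the group mean as a bar, for vehicle (grey), 10 pM E2 (orange) and 100 pM E2 (purple). In the risen genes the 10 pM means lie between vehicle and 100 pM, and in 13 of the 15 fallen genes they lie below vehicle.

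The plot of the 30 genes by array sets both doses beside vehicle. Between 10 pM and vehicle, limma called 0% of the genes, and 2 were called with unmoderated variances. An unadjusted p below 0.05 was reached by 705 of 19938 genes. That is fewer than this threshold passes on average when no gene differs. The 10 pM mean was above the vehicle mean in 15 of 15 rises, and 5 of these 15 were called between 100 and 10 pM. Of the 15 falls, 13 had a 10 pM mean below vehicle and 14 were called between the doses. Over all genes, 0.833% were called between 100 and 10 pM. Both comparisons use the same 100 pM arrays, so these counts are not independent of each other, and whether rises and falls differ in this was not tested. The second 100 pM array was the farthest from vehicle in 15 of the 15 falls and in 8 of the 15 rises.

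The insulin-like growth factor axis fell in most of its called members. Igf1, a mesenchymal growth factor, and the binding proteins that carry it in the extracellular space made up 6 falls among 24 genes, and 1 gene rose. The signal of Igfbp3 was 10.39, 10.37 and 10.48 with vehicle and 9.74, 9.26 and 9.55 at 100 pM, a difference of -0.89 (SE 0.10, adjusted p = 0.00399). For Igfbp4 the values were 9.31, 9.20 and 9.35 and 8.60, 8.33 and 8.64, a difference of -0.76 (SE 0.079, adjusted p = 0.00359). The vehicle arrays of both were tight, and the 100 pM arrays lay well below them. Igfbp5 fell by 0.58 (adjusted p = 0.00752), Igfbp2 fell by 0.47 (adjusted p = 0.00359) and Igfbp6 fell by 0.35 (adjusted p = 0.0201).

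Igf1 itself read 8.20, 8.23 and 8.15 with vehicle and 7.85, 7.73 and 7.91 at 100 pM, and fell by 0.37 (adjusted p = 0.00969). The one rise was Pappa, the protease that cleaves Igfbp4, which went from 9.62, 9.68 and 9.72 to 10.03, 10.13 and 10.12 and differed by 0.42 (SE 0.042, adjusted p = 0.00359). At 10 pM the 5 called binding proteins stayed between -0.13 and 0.042 of vehicle. The median of the whole list was -0.015, against 0.0049 for all genes. Igfbp2, Igfbp3, Igfbp4, Igfbp5 and Pappa stayed called with any 1 array left out. With only the 6 compared arrays in the fit, no gene of this list was called.

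Elastic fibre genes held the second largest fall. Elastic fibres consist of an elastin core on a scaffold of microfibrils, which fibulins and lysyl oxidases help to assemble. Eln, which encodes elastin, read 9.54, 9.51 and 9.31 with vehicle, 9.22, 9.28 and 9.17 at 10 pM and 8.28, 7.92 and 8.14 at 100 pM. The difference of -1.34 (SE 0.092, adjusted p = 0.00175) amounted to 2.54-fold lower signal. Mfap4, a microfibril-associated protein, went from 9.93, 10.02 and 10.07 to 9.27, 8.89 and 9.29, a difference of -0.86 (SE 0.10, adjusted p = 0.00399). Fbln1, a fibulin, fell by 0.59 and Mfap2, another microfibril protein, fell by 0.37.

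Other parts of the same fibre rose. Fbln5, the fibulin that tethers elastin to cells, read 10.79, 10.86 and 10.86 with vehicle and 11.04, 11.09 and 11.06 at 100 pM, with a difference of 0.22 (SE 0.039, adjusted p = 0.0343). Ltbp1, which binds latent TGF-beta to the fibrils, rose by 0.32, and Loxl3, a lysyl oxidase, rose by 0.20. In all, 4 of 22 genes fell, 3 rose and 15 were not called, and the list median was -0.10. Eln, Mfap4 and Fbln1 kept their calls with any single array left out, whereas none of the 3 rises was called in 8 of the 9 fits with 1 array left out, and 1 was in the fit without the third 10 pM array. With only the 6 compared arrays in the fit, 1 fall and no rise of this list was called.

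Of 44 measured collagen chains 4 fell and 1 rose. Col14a1, a fibril-associated collagen, read 10.32, 10.27 and 10.28 with vehicle and 9.84, 9.48 and 9.82 at 100 pM, and differed by -0.58 (SE 0.085, adjusted p = 0.0146). Col15a1 fell by 0.32, Col8a2 fell by 0.24 and Col3a1, a major fibrillar chain of loose connective tissue, fell by 0.18 (adjusted p = 0.0469). Col8a1 rose, with arrays at 9.51, 9.52 and 9.53 for vehicle and 9.76, 9.74 and 9.73 at 100 pM, so that the 2 chains of type VIII collagen went opposite ways. The main chains of type I collagen, Col1a1 and Col1a2, stood at -0.013 and -0.0058 and were not called.

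Among the proteoglycans, which fill the space between fibrils, 3 of 34 fell and 1 rose. Spock3, a testican, was 7.23, 7.18 and 7.35 with vehicle, 7.62, 7.84 and 7.83 at 10 pM and 8.04, 8.11 and 8.12 at 100 pM. The 3 arrays of each E2 dose lay above vehicle, and the 100 pM difference was 0.84 (SE 0.068, adjusted p = 0.00175). Gpc3, a glypican that limits growth, fell by 0.61 (adjusted p = 0.0208). The small leucine-rich proteoglycans Lum and Dcn, which regulate collagen fibril width, fell, with differences of -0.41 and -0.25. Sulf1, an enzyme that trims sulfate from heparan chains, is outside the list and fell by 0.72 (adjusted p = 0.00399).

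Matricellular and basement membrane proteins included the largest fall of all. Egfl6, a secreted protein with EGF repeats, read 7.31, 7.19 and 7.41 with vehicle, 7.09, 7.17 and 7.22 at 10 pM and 6.01, 5.56 and 5.84 at 100 pM. No 100 pM array came within 1 log2 unit of any vehicle array, and the difference was -1.50 (SE 0.11, adjusted p = 0.00175). Fndc1, a fibronectin-domain protein, fell by 0.98 (adjusted p = 0.00387) and Ccn3, a CCN family regulator, fell by 0.82 (adjusted p = 0.0351). Further falls were -0.46 for Mgp, -0.45 for Matn2, -0.40 for Postn and -0.37 for Sparcl1. Lama2, a laminin chain, rose by 0.31 and Thbs2, a thrombospondin, by 0.26. That made 7 falls and 2 rises among 51 genes. Of 48 matrix proteases and inhibitors 3 were called, and all 3 rose. They were Tll1, a procollagen C-proteinase, at 0.65 (SE 0.074, adjusted p = 0.00399), Plau, the urokinase, at 0.37, and Adamts5, an aggrecanase, at 0.23. The list as a whole did not lean upward, with 22 members higher, 26 lower and a median of -0.016. Of the 3 rises only Tll1 stayed called with any 1 array left out.

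**Figure D3:**
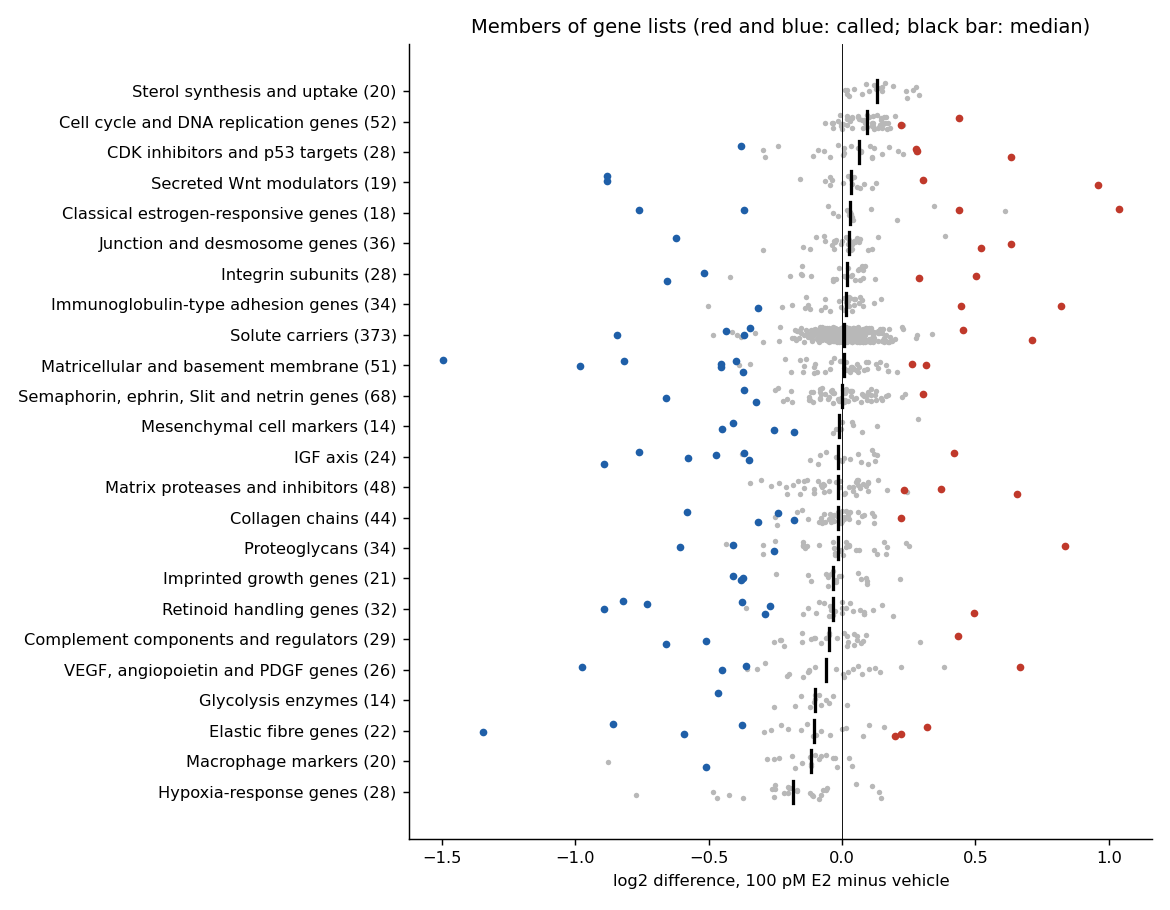
Log2 difference (100 pM E2 minus vehicle, x axis) of every measured member of 24 gene lists, with called members in red (higher) or blue (lower), the others in grey, and the list median as a black bar; the number of measured genes is in brackets. Sterol genes all lie to the right of 0, most hypoxia-response genes, macrophage markers and glycolysis enzymes to the left, and in most other lists the median is near 0 with called members on one or both sides.

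Receptors that hold cells to the matrix were split. Itga1, the integrin subunit of a collagen receptor, read 9.15, 9.23 and 9.11 with vehicle and 8.62, 8.37 and 8.53 at 100 pM and fell by 0.66 (adjusted p = 0.00359). Itga4, which pairs with beta chains to bind fibronectin, read 8.34, 8.51 and 8.31 and 8.89, 8.96 and 8.82 and rose by 0.50 (adjusted p = 0.00875). Itga2, of the other main collagen receptor, rose by 0.29. Itgbl1, an integrin beta-like protein that is in the list but is not itself a subunit, fell by 0.52. That left 24 of the 28 listed genes without a call. Among junction genes Cldn11, a claudin of tight junctions, fell from 7.94, 7.91 and 7.80 to 7.25, 7.32 and 7.22, a difference of -0.62 (SE 0.051, adjusted p = 0.00175). Gja1, the main gap junction connexin of fibroblasts, rose by 0.52 and Perp, a desmosomal p53 target, by 0.63. Cd44, the hyaluronan receptor, rose by 0.45 (adjusted p = 0.0485) and Alcam fell by 0.31. None of 34 cadherins and protocadherins was called, and the 2 of smallest p, Cdh3 and Pcdh19, stood at -0.31 (adjusted p = 0.0506) and 0.22 (adjusted p = 0.0654).

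Growth factors made by mesenchyme moved in few members. Fgf7, the keratinocyte growth factor, which acts on epithelium, read 7.39, 7.50 and 7.48 with vehicle, 7.78, 7.93 and 7.85 at 10 pM and 7.91, 8.22 and 8.09 at 100 pM. It rose by 0.62 at 100 pM (adjusted p = 0.00729) and stood at 0.40 at 10 pM, without a call there or between the doses (adjusted p = 0.356). Fgf18 went down, with 8.52, 8.43 and 8.81 for vehicle and 7.95, 7.72 and 7.83 at 100 pM, and differed by -0.75 (SE 0.094, adjusted p = 0.00752). These were the 2 called genes of 31 FGF ligands and receptors. Spry2, which FGF signals induce and which dampens them in turn, rose by 0.27. Grem1, a secreted BMP antagonist, rose from 7.96, 8.18 and 7.99 to 8.54, 8.76 and 8.76 with 0.64 (SE 0.076, adjusted p = 0.00577). It was the single call among 43 BMP genes, 2.33% against 1.13% over all genes. Boc, a hedgehog coreceptor, fell by 0.39 (adjusted p = 0.0229).

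In 27 TGF-beta and activin genes there was no call, and Tgfb3 and Tgfb1, the 2 of smallest p, stood at -0.15 (adjusted p = 0.167) and 0.19 (adjusted p = 0.236). The 22 Notch genes held none, with the ligand Jag1 at 0.13 (adjusted p = 0.282) and the receptor Notch1 at 0.13 (adjusted p = 0.434) as those of smallest p. The 14 genes of the EGF receptor family also held none, and Nrg1, a neuregulin, and Erbb3, one of its receptors, stood at 0.11 (adjusted p = 0.263) and 0.15 (adjusted p = 0.433). Over all genes 1.13% were called, so lists this short can lack a call without standing apart.

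Vascular ligands and receptors changed in opposite directions. Angpt2, the angiopoietin that loosens vessels, gave 6.15, 6.22 and 6.05 with vehicle, 6.45, 6.51 and 6.51 at 10 pM and 6.79, 6.79 and 6.84 at 100 pM. The 3 arrays at 100 pM spread by little, and the rise of 0.67 (SE 0.049, adjusted p = 0.00175) was among the best measured. Kdr, the main VEGF receptor, gave 7.99, 7.71 and 7.91 with vehicle and 6.89, 6.71 and 7.08 at 100 pM, and fell by 0.98 (adjusted p = 0.00359). Pdgfra, the PDGF receptor of fibroblasts, went from 9.39, 9.34 and 9.42 to 8.94, 8.85 and 9.00 and fell by 0.45 (adjusted p = 0.00359). Pdgfrl, a related protein without a kinase, fell by 0.36. In all, 3 of 26 genes of this list fell and 1 rose.

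Kdr and the endothelial sialomucin Emcn are both endothelial markers, yet Emcn rose, from 6.95, 6.94 and 7.23 to 7.78, 8.02 and 7.77, with a difference of 0.82 (SE 0.091, adjusted p = 0.00399). The other 14 of 16 endothelial markers were not called, and the list median was -0.029. The part that vessel cells in the cultures had in either change was not tested. Guidance cues followed no common direction: Sema3d fell by 0.66 (adjusted p = 0.00359), Epha7 fell by 0.37 and Neo1, a netrin receptor, fell by 0.32, while Sema3a rose by 0.30 (adjusted p = 0.00483), out of 68 genes.

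Retinoid handling was among the lists with most calls. Vitamin A is taken up through Stra6, stored as esters by Lrat, oxidized to retinal by Adh1, Rdh10 and relatives, and then to retinoic acid by enzymes such as Aldh1a1. All 5 of these fell. Lrat gave 6.79, 6.61 and 6.88 with vehicle and 5.98, 5.85 and 5.98 at 100 pM, a difference of -0.82 (SE 0.069, adjusted p = 0.00175). Adh1 gave 8.85, 8.65 and 8.79 and 7.97, 7.65 and 8.00, a difference of -0.89 (SE 0.093, adjusted p = 0.00362). Neither was called at 10 pM, with 0.059 for Lrat and -0.024 for Adh1.

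Stra6 went from 8.07, 8.11 and 8.15 to 7.52, 7.21 and 7.42 and fell by 0.73 (adjusted p = 0.00359). Rdh10 fell by 0.38 (adjusted p = 0.00875), Aldh1a1 fell by 0.29 (adjusted p = 0.03) and Dhrs3, which turns retinal back into retinol, fell by 0.27 (adjusted p = 0.0146). Crabp1, the binding protein that holds retinoic acid in the cytoplasm, rose by 0.50 (adjusted p = 0.0416). Thus 6 of 32 genes fell and 1 rose, with a list median of -0.035. Adh1, Lrat, Rdh10 and Stra6 kept their calls with any 1 array left out, and they were the list's only calls without vehicle array 1, 2 or 3. With only the 6 compared arrays in the fit, no retinoid gene was called.

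Enzymes of foreign compound metabolism also changed. Of 5 flavin monooxygenases, Fmo2 fell from 9.99, 9.74 and 9.82 to 8.99, 8.51 and 9.02, a difference of -1.01 (SE 0.12, adjusted p = 0.00675), and Fmo1 fell by 0.56 (adjusted p = 0.00841). Further enzymes were named after their values were seen. Nqo1, a quinone reductase, read 6.60, 6.72 and 6.82 with vehicle and 7.19, 7.33 and 7.20 at 100 pM and rose by 0.53. Gsto1, a glutathione transferase, rose by 0.50 and Ephx1, an epoxide hydrolase, by 0.37, while Mgst1, a membrane glutathione transferase, fell by 0.29.

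Genes of sterol synthesis and uptake were all slightly higher at 100 pM, but none was called. They build cholesterol from acetate through mevalonate and squalene, under the control of sterol regulatory element binding proteins, which act with the CCAAT-binding factor NF-Y. All 20 measured members were higher at 100 pM than with vehicle, with a median difference of 0.13, while 52.9% of all genes were higher and the median of all was 0.0049. In 9 of the 20 the arrays did not overlap, all 9 of them higher, while 12.5% of all genes had such arrays in either direction. With vehicle array 1, vehicle array 3 or 100 pM array 3 left out, 18 of the 20 were higher. Hmgcs1, the synthase that starts the mevalonate pathway, read 9.72, 9.65 and 9.74 with vehicle, 9.74, 9.81 and 9.86 at 10 pM and 9.92, 9.90 and 10.00 at 100 pM, a difference of 0.24 (SE 0.046, adjusted p = 0.0525). Insig1, the sensor that retains the regulators in the endoplasmic reticulum, stood at 0.26 (SE 0.053, adjusted p = 0.0566), Msmo1, a sterol demethylase, at 0.24 (SE 0.049, adjusted p = 0.0612), and Hsd17b7, which acts late in the pathway, at 0.28 (SE 0.065, adjusted p = 0.108). The list medians on single arrays, as deviations from each gene's vehicle mean, were -0.04, 0.014 and 0.025 with vehicle and 0.13, 0.14 and 0.15 at 100 pM. Members of one pathway share regulators and are not independent, and the second 100 pM array did not stand apart here. Of 18 fatty acid synthesis genes none was called, and the desaturases Scd1 and Scd2 came nearest at 0.24 (adjusted p = 0.0771) and 0.17 (adjusted p = 0.154).

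The promoters of the 4 sterol genes of smallest p are shown because the list lay on one side of vehicle. Each run holds 250 bases before and 50 from the annotated start, 5′ to 3′ on the gene's strand, from RefSeq on build GRCm38.p6. Capitals mark CCAAT on either strand, so that ATTGG is the same motif read on the other strand, and in Hmgcs1 also TCACCCCAC, a match to the sterol regulatory element TCACNCCAC.
Hmgcs1 (chr13:119690101-119690400, plus strand): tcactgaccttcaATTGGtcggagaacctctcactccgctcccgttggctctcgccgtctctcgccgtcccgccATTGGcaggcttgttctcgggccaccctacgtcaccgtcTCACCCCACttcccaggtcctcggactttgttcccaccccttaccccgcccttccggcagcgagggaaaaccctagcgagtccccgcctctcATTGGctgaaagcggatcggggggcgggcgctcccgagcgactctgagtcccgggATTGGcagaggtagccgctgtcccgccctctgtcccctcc
Insig1 (chr5:28071162-28071461, plus strand): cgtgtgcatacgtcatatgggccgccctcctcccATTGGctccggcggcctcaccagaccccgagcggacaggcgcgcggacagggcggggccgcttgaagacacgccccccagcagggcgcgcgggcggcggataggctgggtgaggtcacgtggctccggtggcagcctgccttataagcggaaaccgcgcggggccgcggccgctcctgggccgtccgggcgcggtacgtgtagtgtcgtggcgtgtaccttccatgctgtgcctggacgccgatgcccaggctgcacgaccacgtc
Msmo1 (chr8:64733529-64733828, minus strand): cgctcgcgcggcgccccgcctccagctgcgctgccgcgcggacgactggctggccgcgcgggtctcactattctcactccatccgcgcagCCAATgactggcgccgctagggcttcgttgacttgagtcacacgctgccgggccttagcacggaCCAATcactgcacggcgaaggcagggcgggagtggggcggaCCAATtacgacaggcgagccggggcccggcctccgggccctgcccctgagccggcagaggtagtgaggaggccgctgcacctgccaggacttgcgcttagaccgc
Hsd17b7 (chr1:169969156-169969455, minus strand): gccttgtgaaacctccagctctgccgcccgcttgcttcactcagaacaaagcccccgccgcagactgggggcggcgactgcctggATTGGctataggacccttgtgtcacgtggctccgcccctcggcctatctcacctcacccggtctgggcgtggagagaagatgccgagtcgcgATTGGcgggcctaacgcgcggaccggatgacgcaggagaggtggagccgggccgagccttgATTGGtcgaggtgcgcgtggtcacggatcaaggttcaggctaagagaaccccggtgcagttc
CCAAT was found in 16 of 19 promoters of the 16 sterol genes with an entry, 84.2%, and in 37.4% of the 19116 promoters of all genes. A high share was not particular to sterol genes. The cell cycle genes described below had CCAAT in 34 of 42 promoters (81.0%). Hypoxia-response genes had it in 16 of 32 and glycolysis enzymes in 7 of 23 (30.4%). The sterol regulatory element was found in 1 of the 19 sterol gene promoters, that of Hmgcs1, and in 1.18% of all. A match describes the letters in these windows and shows no binding.

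Sprr1a, a small proline-rich protein of the cornified envelope and of injured tissue, rose from 6.80, 6.95 and 6.96 with vehicle to 7.45, 8.08 and 7.77 at 100 pM, with 7.23, 7.36 and 7.34 at 10 pM. The 3 groups formed separate steps, although the 100 pM arrays scattered widely, and the difference was 0.86 (SE 0.13, adjusted p = 0.0179). Its promoter is shown because AP-1 is one of the routes through which estrogen receptors act and because it holds that motif more than once. Promoters of several uncalled relatives, among them Sprr1b and Sprr2k, held the motif too, and Sprr1a was the 1 called gene of 12 in this family. Capitals mark TGANTCA, searched on both strands.
Sprr1a (chr3:92485832-92486131, minus strand): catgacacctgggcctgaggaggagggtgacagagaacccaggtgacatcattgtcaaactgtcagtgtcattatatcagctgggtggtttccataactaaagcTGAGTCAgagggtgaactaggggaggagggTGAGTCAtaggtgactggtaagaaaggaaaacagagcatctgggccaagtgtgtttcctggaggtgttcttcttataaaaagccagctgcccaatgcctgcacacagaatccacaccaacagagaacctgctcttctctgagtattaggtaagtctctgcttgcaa
TGANTCA was found in 10 of 91 promoters of the risen genes (11%), in 5 of 134 of the fallen genes (3.73%) and in 6.88% of all. GGTCA, one arm of the estrogen response element, was found in 35.2% of promoters of risen genes, 41.0% of those of fallen genes and 39.0% of all, and the full palindromic element in 0 of the called genes' promoters and 0.0314% of all. No test was made of these shares.

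Genes induced by low oxygen were lower at 100 pM as a list, again without a call. Of 28 such genes 24 were lower than with vehicle, and the median was -0.18. Pdk1, the kinase that keeps pyruvate out of the mitochondria, read 8.67, 8.67 and 8.69 with vehicle, 8.79, 8.83 and 8.83 at 10 pM and 8.38, 8.01 and 8.36 at 100 pM, a difference of -0.43 (SE 0.087, adjusted p = 0.062). Egln3, an oxygen-sensing prolyl hydroxylase, read 7.62, 7.55 and 7.70, 8.01, 8.00 and 7.92 and 7.16, 6.92 and 7.37, a difference of -0.47 (SE 0.10, adjusted p = 0.0685). In both genes the 10 pM arrays lay above vehicle and the 100 pM arrays below it, and the direct step between the doses passed the test, at -0.56 for Pdk1 (adjusted p = 0.0235) and -0.83 for Egln3 (adjusted p = 0.0097). Of the 28 genes, 7 were called lower at 100 than at 10 pM and none higher.

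The list median by array was 0.0038, -0.034 and 0.031 with vehicle, 0.093, 0.11 and 0.11 at 10 pM, and -0.12, -0.36 and -0.063 at 100 pM. The second 100 pM array was by far the lowest. Without it the median was -0.086.

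Glycolysis enzymes showed the same order of groups. Of 14 measured, 13 were lower at 100 pM than with vehicle, and the median was -0.10. Aldoc, an aldolase, was the 1 called, with 7.06, 7.11 and 7.13 for vehicle, 7.23, 7.42 and 7.17 at 10 pM and 6.72, 6.47 and 6.71 at 100 pM, and fell by 0.47 (adjusted p = 0.0336). Pgk1 stood at -0.18 (adjusted p = 0.173), with a step of -0.34 between the doses (adjusted p = 0.0158). Here too the second 100 pM array was lowest, and without it the list median was -0.039 and Aldoc was not called. Of 88 respiratory chain subunits none was called, and their median was 0.026. The 2 of smallest p were Ndufa4l2, an Ndufa4 paralog that low oxygen induces, at -0.77 (SE 0.17, adjusted p = 0.0742), and Ndufa4 itself at 0.13 (adjusted p = 0.173).

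**Figure D4:**
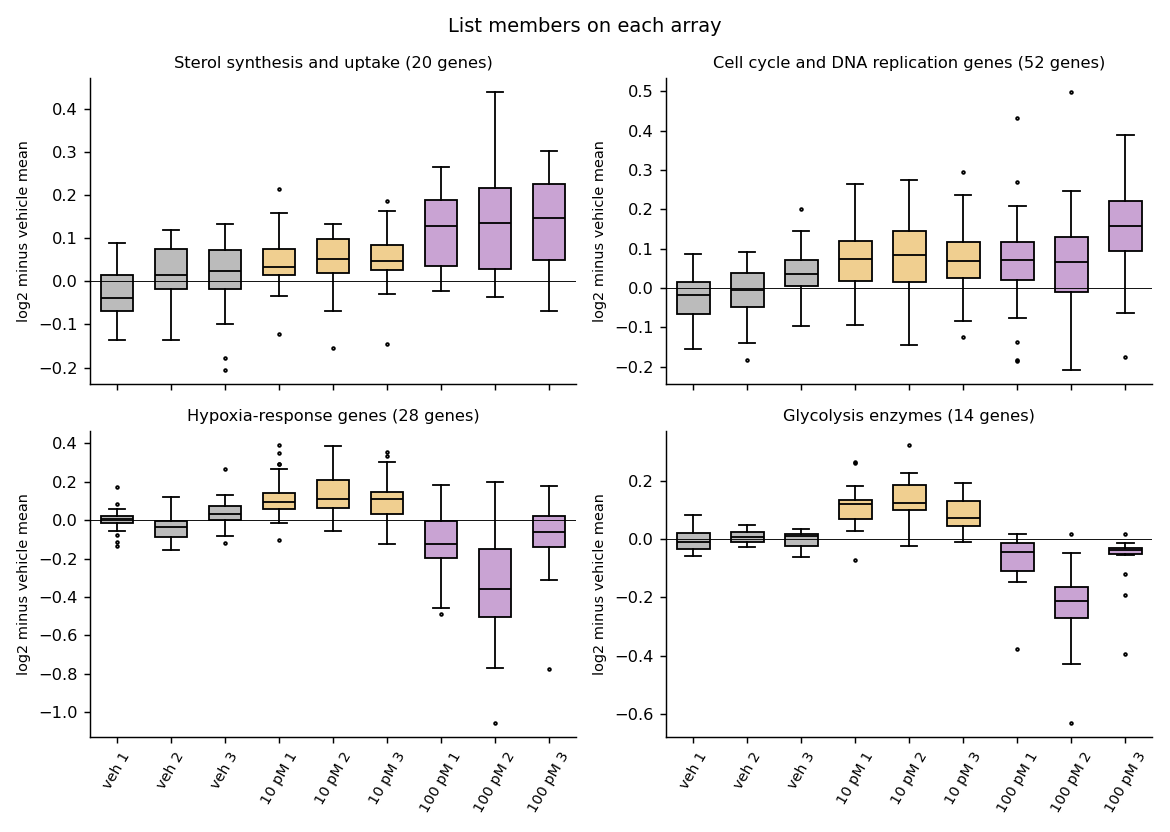
Boxes show the members of 4 gene lists on each of the 9 arrays as log2 signal minus the gene's vehicle mean (y axis), with median, quartiles, whiskers to 1.5 times the interquartile range and points beyond, for vehicle (grey), 10 pM (orange) and 100 pM E2 (purple). Sterol genes sit above vehicle on all 3 arrays at 100 pM, and the medians of hypoxia-response and glycolysis genes lie above vehicle at 10 pM and below it at 100 pM, lowest on the second array.

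Cell cycle genes leaned upward. Of 52 genes 44 were higher at 100 pM, with a median of 0.092. The median at 10 pM was 0.077. Ccnd1, given above, and Plk1, a mitotic kinase that rose by 0.22 (adjusted p = 0.0323), were the 2 called. The third 100 pM array had the highest median, 0.16, and the third vehicle array the highest of its group, 0.035. Cdkn1c, the imprinted inhibitor p57, read 8.60, 8.62 and 8.49 with vehicle and 8.26, 8.11 and 8.19 at 100 pM and fell by 0.38 (adjusted p = 0.00884). Plk2, Pmaip1 and Perp, which p53 can induce, rose by 0.28, 0.28 and 0.63. The list of 28 cyclin-dependent kinase inhibitors and p53 targets held 3 rises and 1 fall, 14.3% called against 1.13% over all genes. The other 24 were not called, and the list median was 0.064. None of its 4 calls was kept in all 9 fits with 1 array left out.

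Imprinted growth genes, which as a class control fetal size, held 3 falls and no rise among 21. Mest went from 6.77, 6.71 and 6.88 with vehicle to 6.59, 6.59 and 6.60 at 10 pM and 6.43, 6.38 and 6.44 at 100 pM, and fell by 0.37 (adjusted p = 0.00675). Zim1 fell by 0.41 (adjusted p = 0.0452) and Cdkn1c as given above. Igf2, the best known paternally expressed growth factor, stood at -0.021 and was not called.

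Among cytokine and innate immune genes, single members fell. Il33, an alarmin stored in the nuclei of stromal cells, read 8.28, 8.08 and 8.16 with vehicle, 7.94, 8.08 and 8.00 at 10 pM and 7.10, 6.47 and 7.00 at 100 pM. Every 100 pM array was below every other, the second by the most, and the difference was -1.32 (SE 0.14, adjusted p = 0.00376). It was the single call among 68 interleukins and receptors, 1.47% against 1.13% over all genes. Lcn2, an iron-carrier-binding acute-phase protein, fell by 0.62 (adjusted p = 0.0148) and Oasl2, an interferon-induced gene, fell by 0.35 (adjusted p = 0.00843). None of 36 chemokines was called, and Ccl2, at -0.28 against vehicle, was lower than at 10 pM by a step of -0.66 (adjusted p = 0.0146). Cx3cl1, the membrane-bound chemokine, stood at -0.20 against vehicle (adjusted p = 0.327).

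Of 29 complement genes 2 fell and 1 rose. Serping1, the C1 inhibitor, went from 9.38, 9.34 and 9.36 to 8.68, 8.55 and 8.86, with a difference of -0.66 (SE 0.068, adjusted p = 0.00359). Masp1, a protease of the lectin route, rose by 0.43 (adjusted p = 0.00399). C1qb fell by 0.51 (adjusted p = 0.0433), but C1q is made by macrophages. Of 20 macrophage markers 18 were lower at 100 pM, with a median of -0.12. By array their medians were -0.0022, 0.079 and -0.066 with vehicle and -0.10, -0.092 and -0.15 at 100 pM. C1qb was the 1 called, and the part of macrophages in the falls of immune genes was not tested.

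The labelled cell type was checked with marker lists. Of 14 mesenchymal markers 4 fell, namely Pdgfra, Lum, Dcn and Col3a1, and 10 were not called, with Vim at 0.13 and Prrx1 at -0.0014. Their vehicle means ran from 5.50 to 13.6, against 4.54 to 7.39 for 19 epithelial markers, although levels of different probesets cannot be ranked. No epithelial marker was called against vehicle, and those of smallest p were Krt18 at 0.43 (SE 0.10, adjusted p = 0.112) and Grhl2, an epithelial transcription factor, at 0.074. Of the 19, 14 were higher than with vehicle, with a median of 0.045, while 52.9% of all genes were higher. Between the doses 1 of the 19 was called, higher at 100 than at 10 pM. No member of the neural, skeletal muscle, adipocyte or blood cell lists was called. Those of smallest p were Foxd3 at 0.16 and Prph at -0.18 for neural cells and glia, Tnnt1 at -0.11 and Myod1 at -0.12 for skeletal muscle, Lpl at 0.37 and Retn at 0.12 for adipocytes, and Nkg7 at -0.12 and Kit at 0.072 for blood cells.

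Channels, transporters and G protein regulators supplied several of the largest rises. Car12, a membrane carbonic anhydrase, read 6.50, 6.31 and 6.51 with vehicle, 7.00, 6.96 and 6.96 at 10 pM and 7.25, 7.53 and 7.47 at 100 pM. The difference was 0.97 (SE 0.079, adjusted p = 0.00175) at 100 pM and 0.53 at 10 pM, where it was not called (adjusted p = 0.451). It was the one called carbonic anhydrase of 16. Rgs4 and Rgs5, which shorten G protein signals, rose by 0.74 (adjusted p = 0.00884) and 0.47 (adjusted p = 0.00399), out of 22 family members. At 10 pM Rgs5 stood at -0.05 and Rgs4 at 0.25, without a call.

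Trpc6, a receptor-operated cation channel, read 5.92, 6.24 and 6.27 with vehicle, 6.59, 6.53 and 6.62 at 10 pM and 6.66, 6.86 and 7.01 at 100 pM and rose by 0.70 (adjusted p = 0.0159). Ano3, an anoctamin, read 7.18, 7.16 and 7.24 with vehicle and 7.77, 7.77 and 7.84 at 100 pM, a difference of 0.60 (SE 0.05, adjusted p = 0.00175). Its second probeset differed by 0.44. Scn7a, a sodium channel that senses salt, rose by 0.44, while Cacna1g, a T-type calcium channel, fell by 0.50. Kcnma1, a calcium-activated potassium channel, fell by 0.37 (adjusted p = 0.0303) with its brightest probeset, but another stood at 0.20 the other way, so its direction is not settled.

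Of 373 solute carriers 2 rose and 4 fell, which is 1.61% and near the 1.13% of all genes. Slc5a7, the choline transporter of cholinergic nerves, gave 5.97, 6.05 and 5.81 with vehicle and 6.61, 6.76 and 6.60 at 100 pM, and rose by 0.71 (adjusted p = 0.00359). Slc27a6, a fatty acid transporter, fell by 0.84 (adjusted p = 0.0176). The amino acid transporters Slc7a2, Slc7a7 and Slc7a3 fell, with differences of -0.44, -0.37 and -0.35. Slc16a12 rose by 0.45 at an adjusted p of 0.0497, the called gene nearest the threshold. Just inside it lay also Ddah1 (adjusted p = 0.0496) and Lxn (adjusted p = 0.0487), and just outside Tmem176a (-0.46, adjusted p = 0.05), Cntn6 (-0.50) and Mt2 (-0.34).

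Single calls came from further lists. Gata6, a zinc finger factor of mesenchyme, fell by 0.25 (adjusted p = 0.0407), the 1 call among 59 mesenchymal transcription factors (1.69%). Atf3, of the stress response, fell by 0.23, Pdlim3, a muscle actinin partner, fell by 0.54 and Gria4, a glutamate receptor, fell by 0.29. Fabp7, a fatty acid binding protein, rose by 0.35. None of 37 Hox genes, 48 keratins or 55 ribosomal proteins was called, and those of smallest p were Hoxa3 and Hoxb6 at -0.25 and 0.12, Krt18 and Krt17 at 0.43 and 0.17, and Rps27l and Rpl12 at 0.14 and 0.17. With 1.13% called over all genes, the lack of a call does not set lists of this size apart.

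Of the 226 called genes 117 belonged to none of the 65 lists, and 47 of these rose and 70 fell. Those among the 30 extremes were the rises Cd24a, a surface sialoglycoprotein, at 0.69 (SE 0.13, adjusted p = 0.0478), Prxl2a, a peroxiredoxin-like protein, at 0.69 (SE 0.091, adjusted p = 0.00875), Pi15, a peptidase inhibitor, at 0.69 (SE 0.10, adjusted p = 0.0116), and Clca3a1, a chloride channel accessory protein, at 0.69 (SE 0.10, adjusted p = 0.014). Its neighbour in the family, Clca3a2, rose by 0.53, and near-identical copies could share probes. The falls were Capn6, a calpain without protease activity, from 9.64, 9.71 and 9.75 to 8.97, 8.43 and 9.02 with -0.90 (SE 0.13, adjusted p = 0.0148), Gdpd2, a phosphodiesterase, at -0.87 (SE 0.10, adjusted p = 0.00399), and Itm2a, a membrane protein, at -0.83 (SE 0.086, adjusted p = 0.00359).

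Other unlisted genes were chosen after their values were seen. Adgrg2, an adhesion receptor of the male reproductive tract, went from 8.53, 8.47 and 8.60 to 7.83, 7.68 and 7.86 and fell by 0.74 (adjusted p = 0.00175). Nrk, a kinase, fell by 0.75, A2m, a broad protease inhibitor, fell by 0.72, Glrb, the glycine receptor beta chain, fell by 0.70, Smarca1, a chromatin remodeler, fell by 0.69, and Penk, the enkephalin precursor, fell by 0.48. Upward, Havcr2, an immune checkpoint receptor, moved by 0.57, Npr3, the natriuretic peptide clearance receptor, by 0.43, and Cd109, a TGF-beta coreceptor, by 0.48. Cd80, a costimulatory ligand, rose by 0.48, but its other probeset stood at only 0.20. Ncoa4, a coactivator that also delivers ferritin for breakdown, fell by 0.52, and its other probeset stood at -0.51.

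How far calls depended on single arrays was read by leaving out each of the 9 arrays. In all 9 fits 75 genes stayed called, 33 higher and 42 lower. These included 9 of the 15 largest rises and 11 of the 15 largest falls. Akr1c14 lost its call in 7 of the 9 fits and Cd24a in 8. Sprr1a, Trpc6, Pi15, Clca3a1, Capn6, Sfrp1, Sfrp4 and Slc27a6 each lost theirs in 1 to 4. The largest loss followed the omission of vehicle array 1, after which 88 genes were called. With only the 6 compared arrays in the fit, 10 genes were called.

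**Figure D5:**
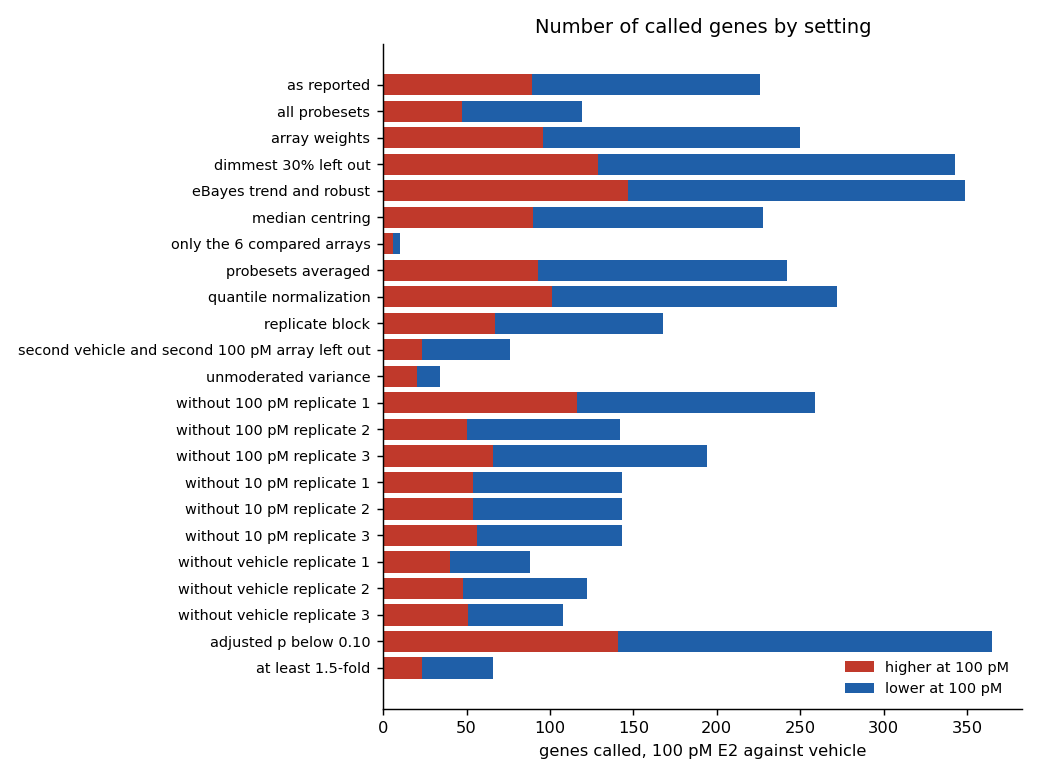
Number of genes called between 100 pM E2 and vehicle (x axis, red for higher and blue for lower at 100 pM) as reported and under each other setting (rows). The total runs from 10 with only the 6 compared arrays to 365 at an adjusted p below 0.10, and more genes are lower than higher in every row except that of the 6 compared arrays and that of unmoderated variances.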

How the data were processed

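Affymetrix Mouse Gene 1.0 ST arrays were hybridised with RNA of primary urogenital sinus mesenchymal cells, 3 arrays per group. The authors scanned them and made the deposited log2 values of 35556 probesets with GCOS and Gene Expression Console; software versions, background correction, normalization and genome build are not given in the sources used here. For an array, precision rests on the number of arrays, and no read depth applies. Of the probesets, 21789 had 1 gene symbol, 1621 several and 12146 are unnamed here; symbols were updated through Entrez identifiers for 21698. The brightest probeset stood for each of 19938 genes.

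All 9 arrays were fitted by group with limma 3.58.1 in R 4.3.3, with eBayes moderation and Benjamini-Hochberg adjustment at 0.05. The methods name an analysis of variance without such moderation, run as an alternative. On simulated data the fit recovered 87 of 100 genes changed by 0.5 log2 units and 98 of 100 changed by 1, with 7 false calls among 19938 genes. The simulated noise was drawn separately for each gene and array, with nothing shared across the genes of an array. In the real data 1 array lay farthest from vehicle for 170 called genes, so these counts do not give the error rate there. The genes named were the 15 largest rises and 15 largest falls among called genes whose arrays did not overlap, every called member of each list (or, where none was called, the 2 of smallest p), Pgr and Esr1; other names are marked as chosen afterwards or stand as reference members of a list. The genes compared and the 65 lists, holding 2313 different genes, were chosen with earlier results of these data known. Listed genes without a probeset of their own were not analysed here. Promoters are RefSeq sequences on GRCm38.p6. Groups came from sample titles.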

Additional observations from a re-analysis of the deposited data

Results flagged for a closer look

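Outside the genes with 1 symbol, and with all 35556 probesets tested together, 3 of 1621 probesets with several gene symbols were called, 2 higher and 1 lower, with differences between -0.70 and 0.36. Of the 12146 probesets unnamed here 9 were called, 3 higher and 6 lower, and the differences in this class reached -0.90 and 1.25. These belong to no comparison above.

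In 3 lists every array at 10 pM had a median above the vehicle mean and every array at 100 pM a median below it. The median difference at 100 pM was -0.183 for hypoxia-response genes, -0.102 for glycolysis enzymes and -0.0618 for VEGF, angiopoietin and PDGF genes, against 0.11, 0.10 and 0.033 at 10 pM. In the last of these lists the 10 pM array medians (0.0065, 0.0508 and 0.033) overlapped those of the vehicle arrays (0.0054, -0.0209 and 0.0363). For the lists as such this difference between the doses was not tested; among single members, 7 hypoxia-response genes and 2 glycolysis enzymes were called lower at 100 than at 10 pM.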

How the results depend on the processing

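None of the 226 called genes changed sign under those of the 22 settings in which it was tested, since leaving out the dimmest genes also dropped some of them. Most settings could not have reversed a sign. The arrays of all 226 genes did not overlap, so leaving arrays out kept the direction, and other moderation or thresholds left the differences as they were. The number of called genes (226, of which 89 higher and 137 lower) was 119 (47 higher, 72 lower) with all probesets tested, since p-values were then adjusted over more tests, 343 (129 higher, 214 lower) with the dimmest 30% left out, where fewer genes were tested, and 349 (147 higher, 202 lower) with trend and robust moderation. It was 34 (20 higher, 14 lower) with unmoderated variances, where 655 genes had an unadjusted p below 0.01, and 10 (6 higher, 4 lower) with only the 6 compared arrays in the fit, which leaves fewer arrays to estimate the spread. An adjusted p below 0.10 gave 365 (141 higher, 224 lower), and a fold of at least 1.5 gave 66 (23 higher, 43 lower). Leaving out the second vehicle and second 100 pM arrays gave 76 (23 higher, 53 lower). Array weights gave 250, averaged probesets 242, quantile normalization 272 and median centring 228, and the share of higher calls stayed between 37.1% and 39.5% over the latter 2.

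Leaving out 1 array in turn gave between 88 and 259 called genes, 40 to 116 higher and 48 to 143 lower. The counts were 88, 122 and 108 without vehicle array 1, 2 or 3, 259, 142 and 194 without 100 pM array 1, 2 or 3, and 143 without any 1 of the 10 pM arrays. Sterol genes had between 0 and 3 calls over all settings, with 3 under trend and robust moderation, with the dimmest 30% left out and at an adjusted p below 0.10, and hypoxia-response genes between 0 and 4. Of the 226 genes, between 86 (without vehicle array 1) and 173 (without 100 pM array 1) were still called, and 210 were with median centring.

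Same-numbered arrays of the 100 pM and vehicle groups had correlations of -0.028, 0.0387 and 0.2004 between their deviations, so the numbers were not taken to pair the samples. With the replicate number as a block, 168 genes were called (67 higher, 101 lower), 153 of them among the 226, and 29 of the 30 named extremes kept their calls. Of the same 30, only 4 kept their calls with the 6 compared arrays alone in the fit, and 5 with unmoderated variances. The normalization behind the deposited values is unknown, and no scanner files were used here. With 3 arrays against 3, an exact two-sided permutation test of a single gene cannot go below 0.10.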
